A study of Mus musculus with 6 samples.

Results

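Reads from 31 pancreatic genes, out of 55421 genes counted, were followed through 6 RNA-seq libraries of monocytes prepared from mouse spleen. The genes were chosen by name, with earlier values of these libraries known: 13 proteases, 6 lipases and lipase partners, 7 other secreted or granule proteins and 2 transcription factors of the pancreatic acinar cell, and the 3 islet hormone genes *Ins1*, *Ins2* and *Gcg*. Because the pattern of these genes led to their choice, their levels are given as a description. Their values in the test between genotypes, which was run over all genes, are a description too and support nothing about these genes. The study compared 3 IL-4Rα+/+ mice with 3 IL-4Rα-/- mice, which lack a functional IL-4 receptor alpha chain in all cells, both of strain C57BL/6 and with no treatment named for these samples. The age and sex of the 6 mice are not given in the labels. Each library came from the splenic monocytes of 1 mouse, enriched from a suspension of the whole spleen with a kit. Poly(A) RNA was sequenced as single-end reads of 75 bases.

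The libraries held 26807281 to 29033297 reads counted on genes, so 1 count stood for 0.0344 to 0.0373 CPM (counts scaled to a common library total). Counts of 1 gene can therefore be set side by side between libraries almost as they are. The targeted gene *Il4ra* had 3550 to 4686 counts in IL-4Rα+/+ and 781 to 2268 in IL-4Rα-/- libraries, and IL-4Rα-/- replicate 2 held the most of the latter. The sum of 10 monocyte markers lay between 15500 CPM in IL-4Rα+/+ replicate 1 and 23700 CPM in IL-4Rα-/- replicate 2. *Lyz2* made up most of it, with 8840 and 17000 CPM in these libraries. Single markers disagreed, so the sum does not rank the libraries by monocytes. *Csf1r*, *Cx3cr1* and *Nr4a1* were lowest in IL-4Rα-/- replicate 2, with 2230, 346 and 538 CPM. *Ly6c2*, *Ccr2*, *Itgam*, *Lyz2*, *Cd14* and *Fcgr1* were highest there, and *Treml4* was neither. *Xist*, which female cells transcribe from the inactive X chromosome, had 15739 counts in IL-4Rα+/+ replicate 1, 13512 in IL-4Rα-/- replicate 3 and 103 or fewer in the other libraries. The Y-linked genes *Ddx3y*, *Eif2s3y* and *Kdm5d* had 0 to 4 counts in IL-4Rα+/+ replicate 1 and IL-4Rα-/- replicate 3 and 1062 to 4112 in the other libraries. By these genes both genotypes mixed female and male mice, and IL-4Rα-/- replicate 2 came from a male. IL-4Rα-/- replicate 2 lay at one end of the first principal component of the 500 most variable genes. The score of this library was 16.9, against -9.3 to 6.11 in the other 5. The pancreatic genes made up 22 of the 500. Once they had been left out, it was 14.7 against -10.7 to 7.87. IL-4Rα+/+ replicate 3 had the nearest score both times. The libraries are named here as IL-4Rα+/+ replicates 1 to 3 and IL-4Rα-/- replicates 1 to 3.

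The acinar cells of the exocrine pancreas make digestive enzymes, store most of them as inactive precursors in zymogen granules and release them into the duct. Trypsins, chymotrypsins, elastases and carboxypeptidases cut proteins, while lipases with colipase cut fats, and a few genes supply a very large part of the messenger RNA of such a cell. The tail of the pancreas lies next to the spleen. Islet cells make insulin and glucagon and form a small part of the same organ. Transcription of the enzyme genes in acinar cells is driven by the PTF1 complex, in which PTF1A binds an E-box, here read as CACCTG, and RBPJL or RBPJ binds TGGGAA.

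The 250 bases before the start of 4 enzyme genes are shown, since acinar enzyme genes are known targets of 1 complex. These 4 were picked by name, and all of them held TGGGAA. Whether the complex bears on the counts in these libraries was not tested. The windows are read on the coding strand from RefSeq on GRCm38.p6, with TGGGAA and CACCTG on either strand in capitals.
Pnlip, chr19:58670115-58670364, plus strand: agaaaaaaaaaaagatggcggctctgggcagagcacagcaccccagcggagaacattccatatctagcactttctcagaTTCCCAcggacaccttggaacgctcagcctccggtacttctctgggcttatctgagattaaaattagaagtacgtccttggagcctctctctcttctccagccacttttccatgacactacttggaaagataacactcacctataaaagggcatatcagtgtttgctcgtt
Ctrb1, chr8:111691011-111691260, minus strand: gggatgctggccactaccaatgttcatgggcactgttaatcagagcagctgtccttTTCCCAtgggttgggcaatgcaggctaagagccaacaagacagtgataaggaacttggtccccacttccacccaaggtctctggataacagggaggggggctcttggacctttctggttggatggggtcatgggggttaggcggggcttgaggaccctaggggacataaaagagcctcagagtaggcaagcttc
Cpa1, chr6:30638968-30639217, plus strand: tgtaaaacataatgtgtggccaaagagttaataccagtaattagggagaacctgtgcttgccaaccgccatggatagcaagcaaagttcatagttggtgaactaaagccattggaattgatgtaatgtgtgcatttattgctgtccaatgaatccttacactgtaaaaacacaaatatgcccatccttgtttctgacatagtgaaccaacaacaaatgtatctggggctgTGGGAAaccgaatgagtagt
Prss2, chr6:41521526-41521775, plus strand: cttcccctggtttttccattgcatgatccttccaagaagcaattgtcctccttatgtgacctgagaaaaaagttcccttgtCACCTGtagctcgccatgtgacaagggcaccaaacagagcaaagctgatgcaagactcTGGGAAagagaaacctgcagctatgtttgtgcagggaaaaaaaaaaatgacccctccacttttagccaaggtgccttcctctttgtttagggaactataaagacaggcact
The *Pnlip* window, before the RefSeq start, lies within the longer gene that GENCODE annotates. Windows were found for 26 of the 31 genes, 24 of them acinar. TGGGAA was present in 17 of the 24 acinar windows (70.8%), against 21.6% of all 32851 windows of this length. CACCTG was present in 13 of 24 (54.2%), against 17.2% of all windows. Both motifs stood in 8 of 24 (33.3%), against 3.91% of all windows, among them *Prss2*, *Cel* and *Cela2a*. TATAAA, the core of the TATA box, was present in 8 of 24 (33.3%), against 12.4%. Of the islet hormone windows, those of *Ins1* and *Gcg* held TGGGAA and neither held CACCTG. A match of letters is no measure of binding, and none was made in these libraries.

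Acinar enzyme reads were present at a high level in 1 library, at a lower level in 2 others, and were close to absent from the other 3. The 28 acinar genes together held 13854 counts in IL-4Rα-/- replicate 2, which is 477 CPM of the library before TMM scaling (exact binomial 95% interval, 469 to 485) or 1 read in 2096. They held 2016 counts in IL-4Rα+/+ replicate 1 and 1604 in IL-4Rα-/- replicate 1. The other libraries held 457 in IL-4Rα+/+ replicate 2, 355 in IL-4Rα+/+ replicate 3 and 665 in IL-4Rα-/- replicate 3, and most of these reads came from *Cela1* and *Ctrl*. Without these 2 genes, the sum of the other 26 was 11924, 1351 and 733 counts in the 3 libraries with the most and 35, 19 and 33 counts in the 3 with the fewest. The 3 libraries with the most acinar reads came from both genotypes, with IL-4Rα+/+ replicate 1 next and IL-4Rα-/- replicate 1 after it. They also included *Xist*-positive and *Xist*-negative libraries. On the CPM scale the sum of all 28 genes was 485 in IL-4Rα-/- replicate 2 and 70.8 in IL-4Rα+/+ replicate 1, a ratio of 6.85 (exact 95% interval of counting error, 6.54 to 7.18). Such intervals cover counting error only, since reads without molecular identifiers are not independent molecules. In bulk RNA, more cells of a type, more RNA per cell and free RNA cannot be told apart.

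**Figure D1:**
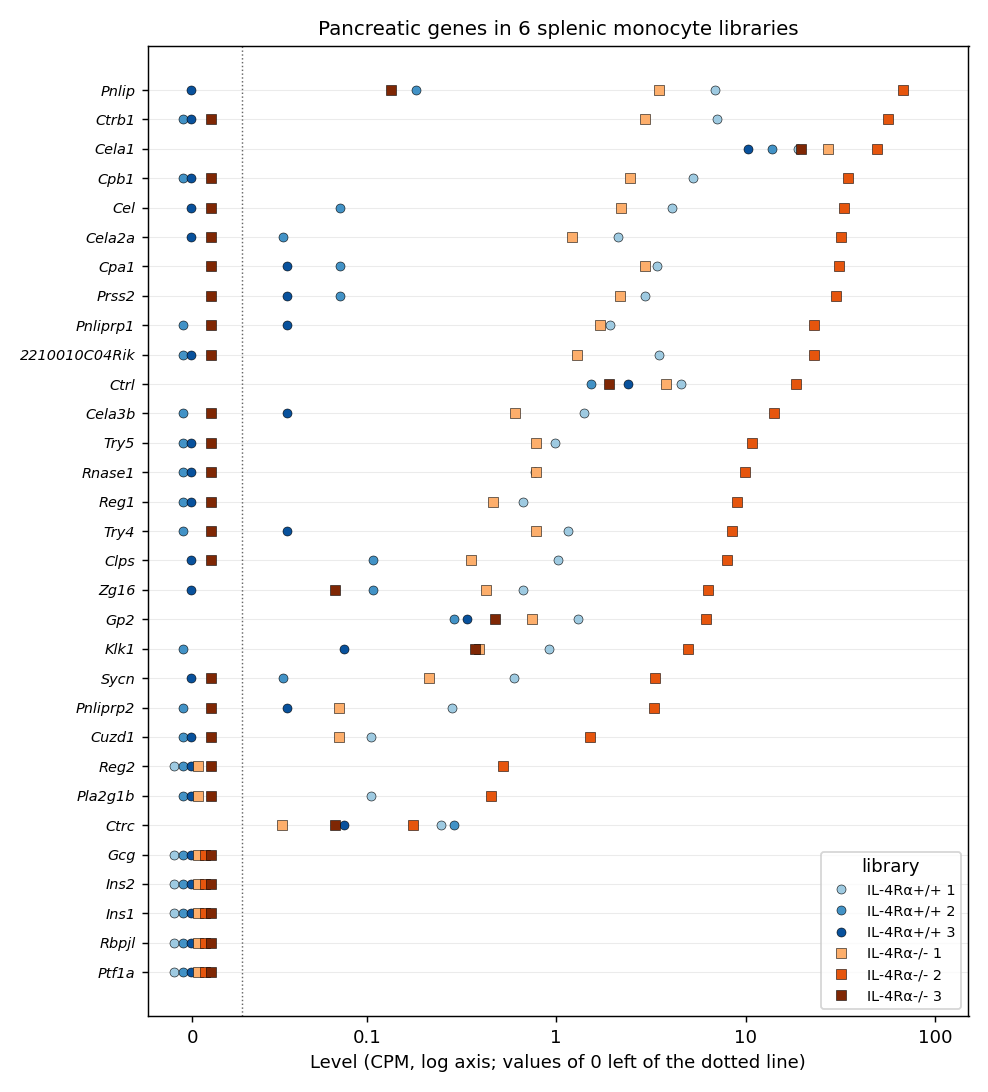
Level of each of the 31 pancreatic genes (rows) in each of the 6 libraries (points; CPM, log axis, values of 0 left of the dotted line). Most enzymes had their highest level in IL-4Rα-/- replicate 2, followed by IL-4Rα+/+ replicate 1 and IL-4Rα-/- replicate 1, while *Cela1* and *Ctrl* were counted in all 6 libraries and 5 genes in none.

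A count was seen for 26 of the 31 genes in IL-4Rα-/- replicate 2, for 25 in IL-4Rα+/+ replicate 1 and for 24 in IL-4Rα-/- replicate 1. In IL-4Rα+/+ replicates 2 and 3 and IL-4Rα-/- replicate 3, 12, 11 and 7 genes had a count. Of the 26 acinar genes with a count anywhere, 25 were highest in IL-4Rα-/- replicate 2, and *Ctrc* was the exception. Of the 20 pancreatic genes with enough counts for the test between genotypes, 20 were highest in that library, as were 24.8% of all 13849 genes tested. Of the same 20, 17 stood there at 5 times the next library or more, which 0.173% of all genes tested did. The full order with IL-4Rα+/+ replicate 1 next and IL-4Rα-/- replicate 1 after it was held by 18 of the 20 and by 0.664% of all genes tested. These counts describe genes that were chosen for this pattern, and 11 of the 31 had too few counts to enter them.

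The trypsin genes gave some of the clearest values. *Prss2* (chr6:41521787-41525079, plus strand, GRCm38), which encodes an anionic trypsinogen, had 84, 2 and 1 counts in IL-4Rα+/+ replicates 1 to 3 and 61, 855 and 0 in IL-4Rα-/- replicates 1 to 3. *2210010C04Rik* (chr6:41030268-41035509, minus strand), a trypsin-like gene of the same region, had 99, 0 and 0 counts in IL-4Rα+/+ and 36, 653 and 0 in IL-4Rα-/- libraries. The same 3 libraries were high for both, and the genotypes overlapped. *Try4* (chr6:41302269-41305532, plus strand) had 33, 0 and 1 counts in IL-4Rα+/+ and 22, 243 and 0 in IL-4Rα-/- libraries. *Try5* (chr6:41311233-41316841, minus strand) had 28, 0 and 0 counts in IL-4Rα+/+ and 22, 309 and 0 in IL-4Rα-/- libraries.

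These trypsin genes are near copies, which bears on how reads could be assigned. The first 75 coding bases, the length of a read, are shown for 3 of them from the GENCODE M21 transcripts, with each base that differs from *Try4* in capitals.
Try4: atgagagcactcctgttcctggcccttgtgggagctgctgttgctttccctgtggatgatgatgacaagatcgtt
Try5: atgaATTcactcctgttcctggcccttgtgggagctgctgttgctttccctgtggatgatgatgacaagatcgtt
Prss2: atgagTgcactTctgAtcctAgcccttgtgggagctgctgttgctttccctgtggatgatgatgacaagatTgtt
*Try5* differed from *Try4* at 3 of these bases and *Prss2* at 5. Over the whole coding sequence *Try4* and *Try5* were identical at 719 of 738 bases (97.4%), while *Try4* and *Prss2* shared 91.7%. *2210010C04Rik* shared 75% to 75.4% with the other 3. Of all windows of 75 bases in the transcript, 43.9% of those of *Try4* and 37.8% of those of *Try5* also occurred in another gene, against 0.945% for *Prss2* and 0% for *2210010C04Rik*. Reads from shared windows map to several places and were not counted, so *Try4* and *Try5* are uncertain and can be undercounted. Of 8 further genes of the trypsin locus, *Prss3* had 4 counts and *Try10* 3, all in IL-4Rα-/- replicate 2, and the others had none.

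**Figure D2:**
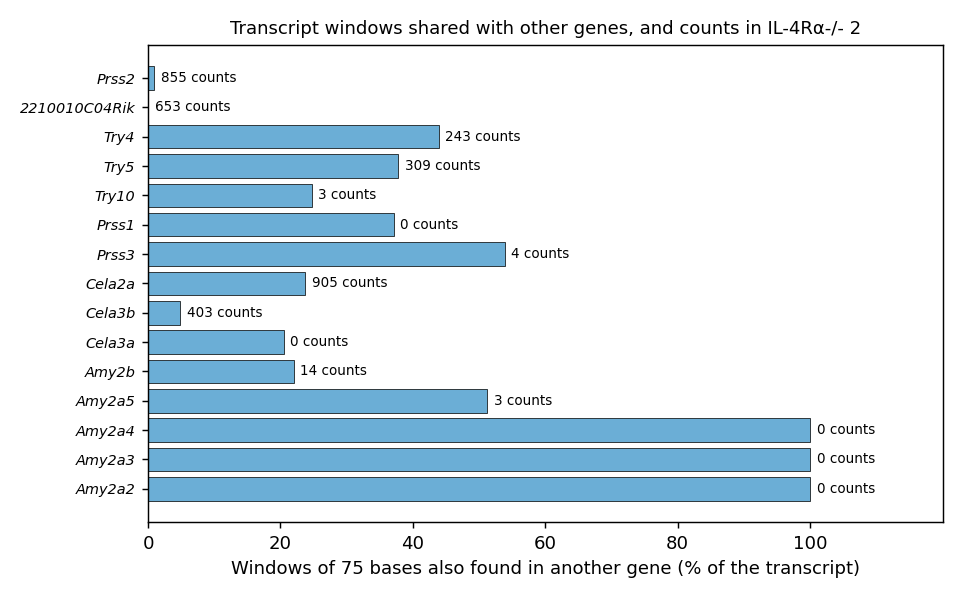
Share of the windows of 75 bases in the longest transcript of each gene that also occur in another gene (bars, %), with the counts of the gene in IL-4Rα-/- replicate 2 beside each bar. *Try4* and *Try5* shared 43.9% and 37.8% of their windows, and 3 amylase genes with 0 counts shared 100% of theirs.

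Chymotrypsins and elastases followed the trypsins with some exceptions. *Ctrb1*, chymotrypsinogen B (chr8:111686519-111691010, minus strand), had 202, 0 and 0 counts in IL-4Rα+/+ replicates 1 to 3 and 82, 1608 and 0 in IL-4Rα-/- replicates 1 to 3. It had no count in 3 libraries, where 3 counts would be 0.104 to 0.112 CPM. *Cela2a*, a pancreatic elastase, had 60, 1 and 0 counts in IL-4Rα+/+ and 34, 905 and 0 in IL-4Rα-/- libraries. *Cela3b*, another member of the elastase family, had 40, 0 and 1 counts in IL-4Rα+/+ and 17, 403 and 0 in IL-4Rα-/- libraries. These 3 genes were high in the same 3 libraries as *Prss2*.

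*Cela1*, *Ctrl* and *Ctrc* behaved in other ways. *Cela1*, also an elastase gene (chr15:100674421-100687921, minus strand), had 536, 380 and 273 counts in IL-4Rα+/+ and 765, 1405 and 576 in IL-4Rα-/- libraries. It was thus counted in every library, and IL-4Rα-/- replicate 2 held only 35.7% of its reads, against 85.2% of those of *Prss2*. *Ctrl*, the chymotrypsin-like protease, had 129, 42 and 63 counts in IL-4Rα+/+ and 106, 525 and 56 in IL-4Rα-/- libraries. It kept 42 or more counts in the libraries where *Prss2* had 0 to 2, and 57% of its reads came from IL-4Rα-/- replicate 2. *Ctrc*, chymotrypsin C, which cleaves trypsinogens, had 7, 8 and 2 counts in IL-4Rα+/+ and 1, 5 and 2 in IL-4Rα-/- libraries, with no order like that of the enzymes. *Ctrc* and *Cela2a* are annotated on the same strand with 305 exon bases in common, which is 17.7% of the exon length of *Cela2a* and 21.4% of that of *Ctrc*. Reads from such bases cannot be assigned to 1 gene by position, so both counts are uncertain.

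The carboxypeptidases, which remove residues from the end of a protein, were high in the same libraries as the trypsins. *Cpa1* had 97, 2 and 1 counts in IL-4Rα+/+ and 82, 890 and 0 in IL-4Rα-/- libraries. *Cpb1* had 151, 0 and 0 counts in IL-4Rα+/+ and 69, 990 and 0 in IL-4Rα-/- libraries. *Klk1*, tissue kallikrein, which is also made in salivary gland and kidney, differed slightly. It had 26, 0 and 2 counts in IL-4Rα+/+ and 11, 142 and 11 in IL-4Rα-/- libraries, so IL-4Rα-/- replicate 3 matched replicate 1. Its transcript shares 14.4% of its windows with 7 genes of the Klk1b family.

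Among the fat-digesting genes the order of the libraries was the same. *Pnlip*, pancreatic triglyceride lipase (chr19:58652498-58681788, plus strand), held more counts than any other pancreatic gene in IL-4Rα-/- replicate 2. It had 196, 5 and 0 counts in IL-4Rα+/+ replicates 1 to 3 and 98, 1932 and 4 in IL-4Rα-/- replicates 1 to 3. *Cel*, the bile salt-activated lipase, had 116, 2 and 0 counts in IL-4Rα+/+ and 62, 947 and 0 in IL-4Rα-/- libraries. *Pnliprp1*, which is related to *Pnlip* and has little known lipase activity, had 55, 0 and 1 counts in IL-4Rα+/+ and 48, 657 and 0 in IL-4Rα-/- libraries. The 3 genes shared no windows with other genes, so these counts do not depend on how copies are told apart.

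*Clps*, the colipase that lets pancreatic lipase work in the presence of bile salts, had 29, 3 and 0 counts in IL-4Rα+/+ and 10, 228 and 0 in IL-4Rα-/- libraries. *Pnliprp2*, a lipase of broader substrate range, had 8, 0 and 1 counts in IL-4Rα+/+ and 2, 94 and 0 in IL-4Rα-/- libraries. *Pla2g1b*, the pancreatic phospholipase A2, was the rarest of the group, with 3 counts in IL-4Rα+/+ replicate 1, 13 in IL-4Rα-/- replicate 2 and 0 elsewhere. The 6 genes of the group summed to 407, 10 and 2 counts in IL-4Rα+/+ and 220, 3871 and 4 in IL-4Rα-/- libraries.

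The 7 other secreted or granule genes summed to 117, 12 and 9 counts in IL-4Rα+/+ and 76, 1050 and 16 in IL-4Rα-/- libraries. *Rnase1*, the pancreatic ribonuclease, had 22, 0 and 0 counts in IL-4Rα+/+ and 22, 283 and 0 in IL-4Rα-/- libraries. *Reg1*, a secreted lectin-like protein of acinar cells, had 19, 0 and 0 counts in IL-4Rα+/+ and 13, 257 and 0 in IL-4Rα-/- libraries. Its relative *Reg2* had 15 counts, all in IL-4Rα-/- replicate 2.

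Genes of the zymogen granule showed the same libraries on a lower level. *Zg16*, a granule lectin, had 19, 3 and 0 counts in IL-4Rα+/+ and 12, 181 and 2 in IL-4Rα-/- libraries. *Gp2*, a glycoprotein of the granule membrane that is also made by M cells of the gut, had 37, 8 and 9 counts in IL-4Rα+/+ and 21, 176 and 14 in IL-4Rα-/- libraries, so it had no library without counts. *Sycn*, syncollin, had 17, 1 and 0 counts in IL-4Rα+/+ and 6, 95 and 0 in IL-4Rα-/- libraries. *Cuzd1*, a granule membrane protein, had 3, 0 and 0 counts in IL-4Rα+/+ and 2, 43 and 0 in IL-4Rα-/- libraries.

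The genes of the acinar transcription factors and of the islet hormones had no reads. *Ptf1a* and *Rbpjl*, which encode parts of the PTF1 complex, had 0 counts in all 6 libraries. *Ins1* and *Ins2*, the insulin genes, and *Gcg*, the glucagon gene, also had 0 counts in all 6. In IL-4Rα-/- replicate 2, where the acinar genes held 13854 counts, 3 counts of the islet genes together would have been 0.0217% of all counts of the pancreatic genes. At this depth a share up to that size was not detectable. The islet hormones thus did not follow the acinar enzymes above that limit.

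Levels were compared between genes per length, as CPM per kilobase of the longest annotated transcript. In IL-4Rα-/- replicate 2, *Ctrb1* led with 64.1 CPM per kilobase, followed by *Pnlip* with 45.5, *Cela1* with 44.4 and *Prss2* with 36.7. *Cela2a* had 29.6, *Ctrl* 20.9, *Cpa1* 19.7, *Cel* 16.1, *Cela3b* 14.5 and *Pnliprp1* 14.2 CPM per kilobase. *Pnlip* and *Cela1* differed by little, and with no second library at this level their order has no replicate check. With the union of exons as length, 8 of the 10 leading genes were shared, and *Cela3b* and *Pnliprp1* left the group. *Ctrb1* still led, but *Prss2* then stood ahead of *Pnlip* and *Cela1*, so the order below *Ctrb1* depends on the length used. In IL-4Rα+/+ replicate 1, *Cela1* led with 17 CPM per kilobase, ahead of *Ctrb1* with 8.08, *Ctrl* with 5.15, *Pnlip* with 4.63 and *Prss2* with 3.62. *Cela1* had 12.4, 9.29 and 17.6 CPM per kilobase in IL-4Rα+/+ replicates 2 and 3 and IL-4Rα-/- replicate 3, which held few enzyme reads. *Ctrl* had 1.73, 2.7 and 2.15 there. The places of these genes therefore include a level that was present without the other enzymes. Without them, *Ctrb1* led in both libraries.

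The mixture of enzymes was then compared between the 3 libraries that held them. For this, 19 acinar genes were taken that had 30 counts or more in IL-4Rα-/- replicate 2 and 5 or fewer in each of the 3 low libraries, a rule set with the values known. They summed to 11573 counts in IL-4Rα-/- replicate 2, 1278 in IL-4Rα+/+ replicate 1 and 700 in IL-4Rα-/- replicate 1, and to 19, 6 and 6 in IL-4Rα+/+ replicates 2 and 3 and IL-4Rα-/- replicate 3. IL-4Rα-/- replicate 2 held 85.2% of their 13582 counts. Scaled to CPM, it exceeded IL-4Rα+/+ replicate 1 by 9.03-fold over the sum and by 5.57-fold (*Sycn*) to 15-fold (*Cela2a*) for single genes. It exceeded IL-4Rα-/- replicate 1 by 16.2-fold over the sum, and by 10.6-fold (*Cpa1*) to 46.1-fold (*Pnliprp2*, with 2 counts in the latter) for single genes. The order of the 19 genes by counts was similar, with Spearman's rho of 0.947, 0.951 and 0.935 for the 3 pairs of libraries. These are across genes of the same transcript lengths and are given as a description, since genes are not replicates.

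Single genes were set against the ratio of the sums, with counting error only. Between IL-4Rα-/- replicate 2 and IL-4Rα+/+ replicate 1, the exact 95% interval of the ratio held the ratio of the sums for 15 of the 19 genes. *Cpb1* and *2210010C04Rik* lay on one side of it, with 11.8% and 7.75% of the 19-gene counts in IL-4Rα+/+ replicate 1 against 8.55% and 5.64% in IL-4Rα-/- replicate 2. *Cela2a* and *Pnliprp1* lay on the other, with 4.69% and 4.3% against 7.82% and 5.68%. Against IL-4Rα-/- replicate 1 the interval held the ratio of the sums for 17 of the 19. *Cpa1*, with 11.7% there against 7.69% in IL-4Rα-/- replicate 2, and *Cela2a*, with 4.86% against 7.82%, were outside. The intervals do not include the spread between mice, and those of genes with few counts are wide, such as *Pnliprp2* and *Cuzd1* with 2 counts each in IL-4Rα-/- replicate 1, so a gene inside its interval is not shown to have the same share. *Pnlip*, which led the 19 genes in IL-4Rα-/- replicate 2 with 16.7%, held 15.3% in IL-4Rα+/+ replicate 1 and 14% in IL-4Rα-/- replicate 1. *Ctrb1* held 13.9%, 15.8% and 11.7% of the counts in the same order.

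**Figure D3:**
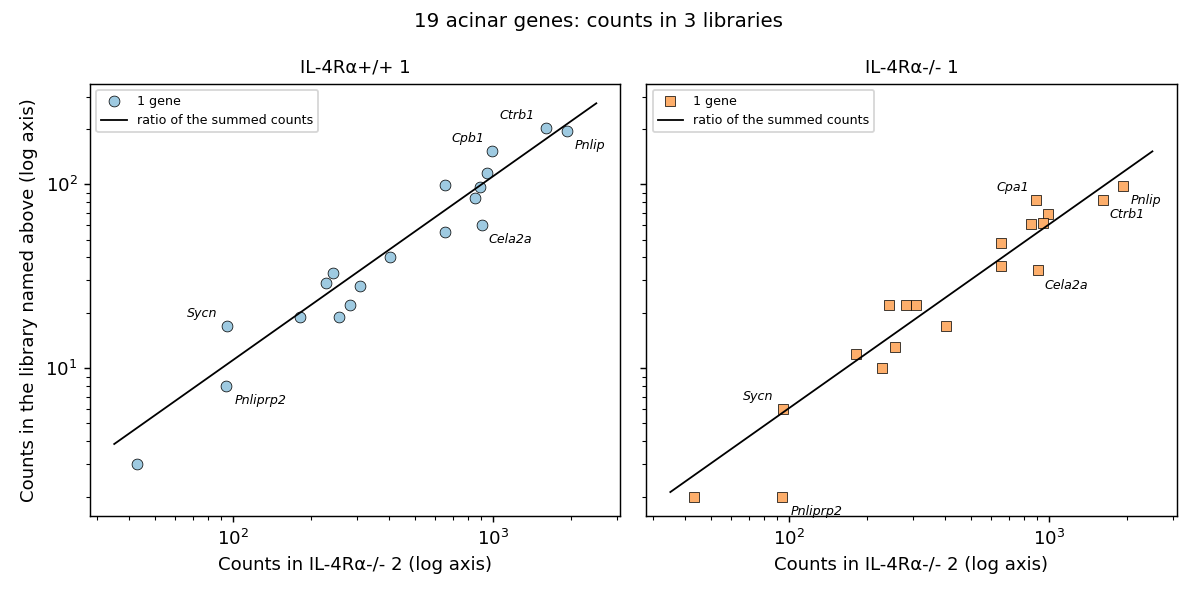
Counts of 19 acinar genes (points) in IL-4Rα+/+ replicate 1 (left) and IL-4Rα-/- replicate 1 (right) against IL-4Rα-/- replicate 2, on log axes, with a line at the ratio of the summed counts. Most genes lie near the line, while *Cela2a* lies under it in both panels and *Cpb1* (left) and *Cpa1* (right) lie above it.

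Genes with the most similar pattern were sought over all genes with 30 counts or more in IL-4Rα-/- replicate 2, by the ratio of their CPM in that library to the highest of the other 5, with these set to at least 3 counts. Of the 20 largest ratios among 11884 genes, 15 belonged to the 31 pancreatic genes, which the choice of these genes had favoured. *Dmbt1*, a secreted scavenger receptor protein, had 18, 3 and 1 counts in IL-4Rα+/+ and 7, 140 and 0 in IL-4Rα-/- libraries, a ratio of 7.75. *Tff2*, a trefoil peptide, had 3, 0 and 0 counts in IL-4Rα+/+ and 4, 34 and 0 in IL-4Rα-/- libraries, a ratio of 8.34. For both genes the libraries next in order were IL-4Rα+/+ replicate 1 and IL-4Rα-/- replicate 1, as for the enzymes, with the latter ahead by 1 count for *Tff2*.

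Most of the other leading genes named here differed from the enzymes in the remaining libraries, with *Ighv1-4* as an exception. *Saa3*, an acute-phase protein, had 22, 49 and 143 counts in IL-4Rα+/+ and 32, 1301 and 14 in IL-4Rα-/- libraries, a ratio of 8.44. *Lrg1*, a secreted glycoprotein, had 11, 7 and 236 counts in IL-4Rα+/+ and 28, 1724 and 9 in IL-4Rα-/- libraries, a ratio of 6.78. In both, IL-4Rα+/+ replicate 3 was second, a library with 0 or 1 counts of most enzymes. The same library was second for *Il1r2*, the decoy receptor of interleukin-1, with a ratio of 5.78, and for *Rhov* and *Wfdc21*, with 6.13 and 5.75. The immunoglobulin segments *Ighv1-4* and *Ighv3-4*, variable segments of the antibody heavy chain of B cells, had ratios of 9.03 and 8.13. *Ighv1-4* had 14, 7 and 0 counts in IL-4Rα+/+ and 24, 221 and 1 in IL-4Rα-/- libraries. Its highest libraries were thus those of the enzymes, with IL-4Rα-/- replicate 1 ahead of IL-4Rα+/+ replicate 1. *Ighv3-4* had 0, 5 and 2 counts in IL-4Rα+/+ and 5, 42 and 0 in IL-4Rα-/- libraries.

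Of 21 further genes known from acinar cells, 20 were in the files, and several had reads in IL-4Rα-/- replicate 2 only. *Spink1*, the trypsin inhibitor, had 17 counts there and *Serpini2*, a pancreatic serpin, had 16, with 0 in the other libraries. *Cckar*, the receptor for cholecystokinin, had 7 counts, *Reg3b* and *Reg3d* had 5 each, and *Reg3a* had 3, also in that library alone. *Pdia2*, a pancreatic protein disulfide isomerase, had 4, 0 and 1 counts in IL-4Rα+/+ and 12, 40 and 2 in IL-4Rα-/- libraries. *Gatm*, *Nupr1*, *Erp27* and *Bhlha15*, which other cells also transcribe, showed no such order. *Gatm* had 442 to 537 counts in IL-4Rα+/+ and 533 to 770 in IL-4Rα-/- libraries, and *Erp27* 25 to 28 and 29 to 43. The list as a whole summed to 172, 129 and 139 CPM in IL-4Rα+/+ and 135, 139 and 122 CPM in IL-4Rα-/- libraries. Its sum thus did not show the order of the enzymes, and most of it came from *Nupr1*, with 97.2 to 150 CPM. *Nr5a2*, *Reg3g* and *Cela3a* had 0 counts in all libraries.

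Amylase, the starch-digesting enzyme of the pancreas, was nearly missing from the counts. *Amy2b* had 3 counts in IL-4Rα-/- replicate 1 and 14 in IL-4Rα-/- replicate 2, and *Amy2a5* had 3 in the latter. Every window of 75 bases of *Amy2a2*, *Amy2a3* and *Amy2a4* occurred in another amylase gene, as did 51.2% of those of *Amy2a5* and 22% of those of *Amy2b*. Reads that map to several places were not counted, so pancreatic amylase cannot be set beside the other enzymes here. Such reads made up 8.3% to 9.35% of each library, with the highest share in IL-4Rα-/- replicate 2.

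Markers of neighbouring tissues did not show the order of the enzymes. Of 19 further endocrine genes, *Sst*, *Ppy*, *Pdx1*, *Chga* and 9 others were at 0 in all libraries, and the list summed to 6 to 10 counts in IL-4Rα+/+ and 7 to 17 in IL-4Rα-/- libraries. Of 10 duct genes, *Cftr* and *Onecut1* were at 0 in all libraries, *Sox9* had 1 count and *Krt19* had 0 or 1. *Krt7*, a keratin, made up most of the duct sum, with 506 to 815 counts in IL-4Rα+/+ and 261 to 475 in IL-4Rα-/- libraries, and was lowest in IL-4Rα-/- replicate 2. Of the other duct genes, *Epcam* had 11 to 26 counts and *Muc1* had 43 in IL-4Rα-/- replicate 2 and 2 to 17 elsewhere. Fat genes summed to 7 to 18 counts in a library, liver genes to 0 to 4, stomach genes to 0 to 2, intestine genes to 1 to 5 and mesothelium genes to 0 to 8. Fibroblast genes, 5 of 6 of them with counts, summed to 230 to 339 counts in 5 libraries and to 167 in IL-4Rα-/- replicate 2, where the enzymes were highest.

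Blood cell markers differed between the same libraries. The sum of 5 neutrophil markers, led by *Mmp8*, *Ngp* and *Ltf*, was 35.7, 41.3 and 199 CPM in IL-4Rα+/+ and 119, 428 and 70.1 CPM in IL-4Rα-/- libraries. It was highest in IL-4Rα-/- replicate 2, as were the enzymes, but second in IL-4Rα+/+ replicate 3, where the 26 acinar genes without *Cela1* and *Ctrl* held 19 counts. *Mmp8* set that second place, with 170 CPM there and 49.1 CPM in IL-4Rα-/- replicate 1. *Camp*, *Ltf* and *Ngp* were instead second in IL-4Rα-/- replicate 1, with 9.92, 24.1 and 35.9 CPM. In IL-4Rα+/+ replicate 3 these genes had 3.02, 10.7 and 15 CPM. The defining neutrophil marker *Ly6g* had 0 to 9 counts. Erythroid markers reached 414 CPM and B cell markers 107 CPM in IL-4Rα-/- replicate 3, and T cell markers 31.9 CPM, each the highest of the 6 libraries and in a library with few enzyme reads. The part of these cells in the enzyme counts was not tested.

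**Figure D4:**
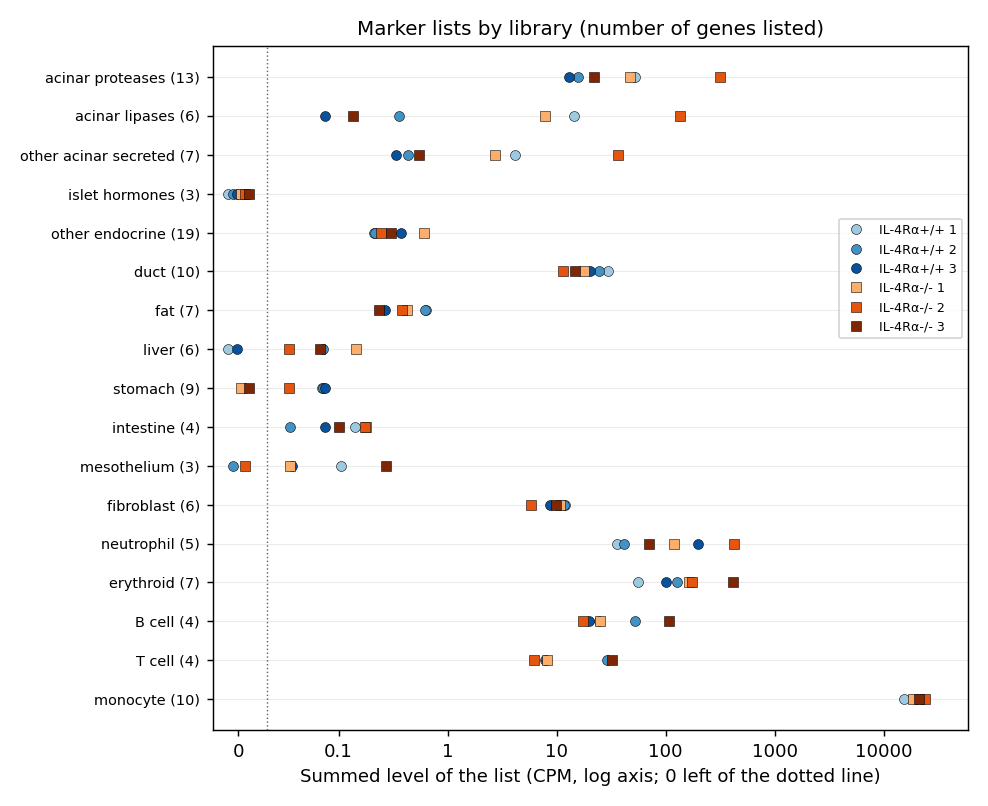
Summed level of marker lists (rows, with the number of genes listed) in the 6 libraries (points; CPM, log axis, values of 0 left of the dotted line). The acinar transcription factors, the further acinar genes and the further trypsin genes are not drawn. Acinar proteases, lipases and other secreted genes were highest in IL-4Rα-/- replicate 2 and next in IL-4Rα+/+ replicate 1 and IL-4Rα-/- replicate 1, an order that no other list drawn here showed.

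The genotypes were compared by edgeR's quasi-likelihood test over 13849 genes, in which 20 of the 31 pancreatic genes had enough counts. No gene passed the adjusted p-value of 0.15 (0% of those tested), while 1120 had an unadjusted p-value under 0.05, and DESeq2 called 80 genes (0.311% of 25728). None of the pancreatic genes was called by either. By edgeR, 1 of the 20 had an unadjusted p-value under 0.05. By DESeq2, 2 of the 25 pancreatic genes tested had one, as did 1208 of all 25728 genes. The sum of the 28 acinar genes was 33.6 ± 32.3 CPM (SD, n = 3) in IL-4Rα+/+ and 188 ± 258 CPM (SD, n = 3) in IL-4Rα-/- libraries, and the ranges overlapped. The log2 ratio of these means was 2.49 with all libraries and 0.25 without IL-4Rα-/- replicate 2. The fitted log2 fold changes of the 20 genes lay between 1.16 and 3.92, with a median of 3.09 against 0.0084 over all genes tested, standard errors of 0.38 to 2.24 and adjusted p-values of 0.618 to 0.717. Without IL-4Rα-/- replicate 2, 9 of them were above 0 and 11 below, between -1.09 and 0.71, with a median of -0.06.

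*Cela1* was the one pancreatic gene whose genotypes did not overlap, as in 7.63% of all genes tested (higher in IL-4Rα-/-). It had 18.8, 13.7 and 10.3 CPM in IL-4Rα+/+ and 27.3, 49.2 and 19.5 CPM in IL-4Rα-/- libraries. The nearest libraries, IL-4Rα+/+ replicate 1 and IL-4Rα-/- replicate 3, differed by little. Its log2 fold change was 1.16 ± 0.38 (SE, n = 3) with an adjusted p-value of 0.618 by edgeR and 0.173 by DESeq2, and 0.71 ± 0.28 without IL-4Rα-/- replicate 2. *Ctrl* had a log2 fold change of 1.51 ± 0.87 (SE, n = 3; adjusted p-value by edgeR, 0.648) with all libraries and of 0.01 ± 0.54 without IL-4Rα-/- replicate 2. *Cela2a*, with the largest value of all, had 3.92 ± 2.19 (adjusted p-value by edgeR, 0.642) and -0.25 ± 1.96 in turn.

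**Figure D5:**
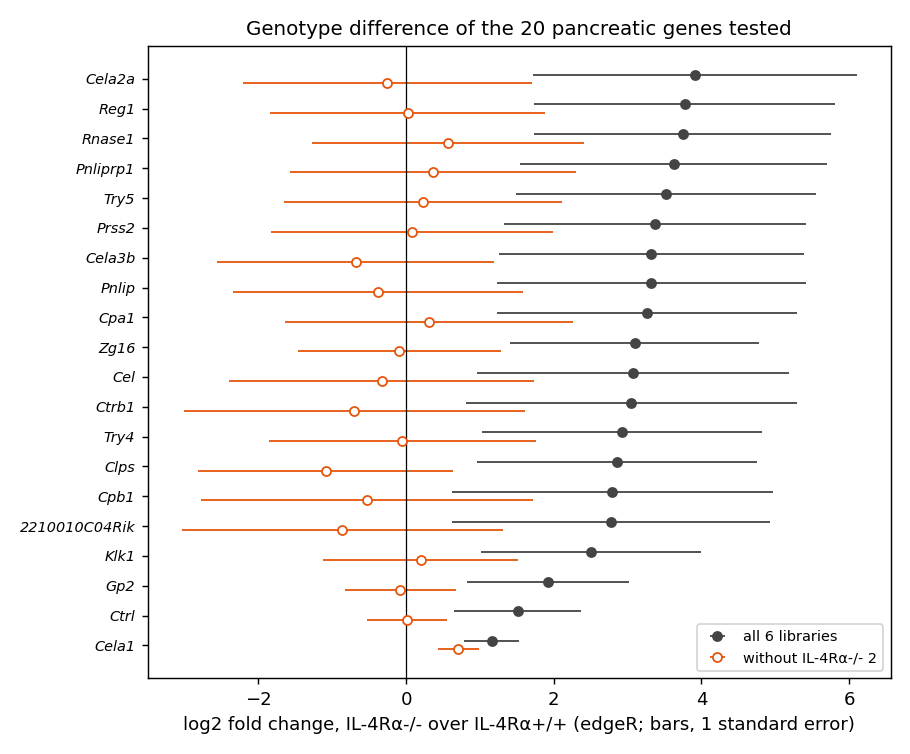
Log2 fold change of IL-4Rα-/- over IL-4Rα+/+ (x axis) for the 20 pancreatic genes tested by edgeR (rows), with all 6 libraries (filled) and without IL-4Rα-/- replicate 2 (open), bars showing 1 standard error. All 20 values were above 0 with all libraries, and 9 of 20 were without IL-4Rα-/- replicate 2.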

How the data were processed

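Splenic monocytes of 6 mice were sequenced, with 1 library per mouse and 3 mice per genotype. The authors aligned the reads to GRCm38 with STAR 2.6.1a and deposited raw counts of uniquely mapped reads per gene, without normalization. Which strand column was kept is not given in the sources used here, so overlapping genes are uncertain. RSEM and DESeq2 1.22.2 are also named in the submitters' processing notes. Reads that were unmapped, multimapping (8.3% to 9.35%), outside genes or ambiguous were left out. Symbols, positions and transcripts came from GENCODE M21, in which 55240 of 55421 identifiers were found, and promoters from RefSeq.

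The members and the marker lists were chosen with earlier results of these data known. The genes named were all 31 members, listed marker genes with 10 counts or more in the library highest in acinar reads, and the 10 other genes most like them. Further genes were named after their values were seen. Some genes that this rule names are not reported here. Genes kept by filterByExpr (minimum count 10) were normalized by TMM and compared with edgeR 4.0.16 (R 4.3.3). P-values were adjusted after Benjamini and Hochberg, with the study's own threshold of 0.15. DESeq2 1.42.0 was the alternative. The standard errors given for edgeR are approximate: the size of the log2 fold change over the square root of the F statistic. The steps were tested on simulated data. Same-numbered libraries of the genotypes correlated at 0.185, -0.271 and -0.296 in their deviations, so the numbers were not taken as pairs. P-values measure the spread between these mice.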

Additional observations from a re-analysis of the deposited data

How the results depend on the processing

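The count of genes called at an adjusted p-value of 0.15 was 0 in edgeR under every alternative run, leaving out each library included, and 80 with DESeq2, while no pancreatic gene was called in any of them. The median log2 fold change of the pancreatic genes tested, 3.09 with all libraries, ranged from -0.06 without IL-4Rα-/- replicate 2 to 7.84 without IL-4Rα+/+ replicate 1. In the latter, the IL-4Rα+/+ libraries left were at or near 0, so the value depends on the prior count and is no bound. With the replicate block it was 2.74, and no call changed. Replicate numbers paired no libraries. The log2 ratio of the summed acinar levels, 2.49 with all libraries, ranged from 0.25 without IL-4Rα-/- replicate 2 to 3.65 without IL-4Rα+/+ replicate 1, and was 1.77 as the mean over same-numbered libraries (replicate block). The fold of the summed level between IL-4Rα-/- replicate 2 and IL-4Rα+/+ replicate 1 was 6.85, 6.53 without *Pnlip* and 8.45 without *Cela1*, *Rnase1*, *Zg16*, *Gp2*, *Klk1* and *Rbpjl*, 6 genes that other cells can also hold. Depth limits the islet genes and *Ctrc*, *Pla2g1b* and *Reg2*, which had 25 counts or fewer over all libraries. With 1 library at the high level, the size of the enzyme signal has no replicate check.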
